A study of Arabidopsis thaliana with 6 samples.

Results

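The genes described here carry the names of protein families known from the plant embryo as its seed matures and dries. These are cruciferin storage globulins, the oleosins and caleosins that coat oil bodies, and late embryogenesis abundant (LEA) proteins. The genes were chosen by the text of the gene description in the authors' deposited table, which had to name one of these families, plus listed gene IDs for cruciferins and an oleosin. RAB18, an abscisic acid marker, was left out. The rule found 59 genes of 19955 in the table, 56 of them by description and 3 by ID. Of the 59, 27 are LEA hydroxyproline-rich glycoproteins, known for roles in membranes and immunity rather than in seeds. CRB, the remaining cruciferin of the rule, was not analysed here, and 4903 genes without a readable description could enter only by ID.

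RNA was sequenced from whole seedlings of Arabidopsis thaliana, accession Col-0, at 7 days. They were grown at 22 °C under 16 h of light and 8 h of dark, with no treatment. The labels name 3 libraries of the mir163 mutant and 3 of wild type (WT), all in Col-0, call them biological replicates, and give no allele for the mutant. The table holds 1 value per gene and genotype, in FPKM (fragments per kilobase of transcript, relative to all mapped fragments), so no spread between libraries and no depth can be given. MIR163, the mutated locus, stood at an FPKM of 0.0726 in mir163 seedlings and 20.5 in WT seedlings. As a check of the tissue, the leaf genes RBCS1A and LHCB1.3 were at 15342 and 11412 in mir163 and at 18310 and 12577 in WT. The root genes PRP3 and CASP1 were at 84.6 and 50.2 in mir163 and at 84.8 and 56.6 in WT. Shoot and root transcripts were thus both present. Of the flower markers, 1 of 3 was in the table: PI, at 1.08 in mir163 and 0.775 in WT.

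Cruciferins are the main globulin reserve of Arabidopsis seeds and are broken down after germination. Oleosins cover the surface of oil bodies and keep them from fusing, and caleosins are calcium-binding proteins of the same surface. LEA proteins are very hydrophilic and protect cells during drying, and many are also made in leaves and roots under drought, salt or cold. Their genes are switched on in the seed by abscisic acid, through bZIP factors such as ABI5 that bind the abscisic acid response element (ABRE), and by B3 factors such as ABI3 and FUS3 that bind the RY element. After germination these programmes are shut off. A large group of membrane proteins also carries the LEA name in its description, the LEA hydroxyproline-rich glycoproteins, related to the defence proteins NDR1 and HIN1, and is known for roles in membranes and immunity rather than in seeds.

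The members comprised 3 genes described as cruciferins, 6 oleosins, 1 caleosin, 22 other LEA proteins and 27 LEA hydroxyproline-rich glycoproteins. AT2G39650 is among the cruciferins only by its description, which also names a DUF506 domain. Of all members, 18 overlap another annotated gene in RefSeq, 15 of them on the opposite strand. For 3, the oleosin gene AT2G25890 and the glycoprotein genes AT4G26490 and AT4G05220, every stretch of 50 bases of the transcript is also in another gene. Nothing in the labels tells if the libraries were stranded, so reads of these genes and their partners cannot be told apart.

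The sequences before the start of 4 seed genes are shown because these genes include members with large differences, and OLEO4, which carries the same motif and had nearly equal values. Each is the 250 bases before the annotated gene start in RefSeq's TAIR10.1, 5′ to 3′ on the strand of the gene. Capitals mark the RY element, spelled CATGCA, and the ABRE core, spelled ACGTG, on either strand.
CRA1 (chr5:17758337-17758586, minus strand): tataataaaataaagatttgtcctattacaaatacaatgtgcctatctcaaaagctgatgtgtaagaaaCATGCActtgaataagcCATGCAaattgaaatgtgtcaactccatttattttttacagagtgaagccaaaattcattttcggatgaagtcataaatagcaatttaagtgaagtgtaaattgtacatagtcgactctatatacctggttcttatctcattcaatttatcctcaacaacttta
CRU3 (chr4:14087306-14087555, plus strand): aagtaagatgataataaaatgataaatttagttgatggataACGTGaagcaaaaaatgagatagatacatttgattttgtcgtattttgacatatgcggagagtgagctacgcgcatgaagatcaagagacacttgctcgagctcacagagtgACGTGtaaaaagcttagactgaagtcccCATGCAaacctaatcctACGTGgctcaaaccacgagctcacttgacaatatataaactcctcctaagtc
OLEO4 (chr3:10242994-10243243, plus strand): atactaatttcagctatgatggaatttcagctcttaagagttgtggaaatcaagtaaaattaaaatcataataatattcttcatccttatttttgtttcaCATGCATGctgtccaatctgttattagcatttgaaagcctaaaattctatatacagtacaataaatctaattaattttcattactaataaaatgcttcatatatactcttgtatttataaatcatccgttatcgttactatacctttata
LEA18 (chr2:14863413-14863662, minus strand): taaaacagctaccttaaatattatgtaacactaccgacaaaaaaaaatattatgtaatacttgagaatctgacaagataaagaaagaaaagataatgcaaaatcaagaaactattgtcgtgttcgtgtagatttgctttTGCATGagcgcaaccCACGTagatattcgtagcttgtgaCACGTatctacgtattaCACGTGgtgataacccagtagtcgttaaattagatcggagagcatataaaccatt

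CRA1 has 2 RY elements and no ABRE core in this window. CRU3 has 1 RY element and 3 ABRE cores, and LEA18 has 1 RY element and 4 ABRE cores, where the palindrome CACGTG (the G-box) counts as an ABRE core on both strands. The 2 RY matches of OLEO4 overlap, on opposite strands.

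The transcripts of the 59 members were also searched for a target site of the microRNA itself. The mature microRNA lies at chr1:24884359-24884382 on the plus strand and is shown with its seed, bases 2 to 8, in capitals.
miR163: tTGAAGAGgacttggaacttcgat

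Against the perfect complement of that sequence, 0 of 59 members had a match within 4 differences, counting mismatches and gaps of 1 base. The nearest was the glycoprotein gene AT3G44380, with 5 differences. Only the longest transcript model of each gene was searched, and the limit was not tried on a known target. Whether any member is a direct target was not tested.

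Setting mir163 beside WT asks how the transcriptome differs when this microRNA is missing. Of the 4 members whose p was under 0.05 before adjustment, the cruciferin CRA1, the LEA gene LEA18 and the oleosin OLEO2 were at higher values in mir163, and AT5G56100, an abundant gene described as an oleosin, was at a lower one. No member passed the test: after Benjamini-Hochberg adjustment of the p-values in the authors' deposited table over the 19264 genes that reached an FPKM of 1 in a genotype, 0 of 54 members tested were called in either direction. The background was the same, at 0% of all genes in each direction. MIR163 itself was not called, with a p in the authors' deposited table of 0.180, and 0.9996 after adjustment. A gene that was not called here is therefore not shown to be unchanged. At an unadjusted p under 0.05, 3 members were higher in mir163, where 0.67% of all genes tested were, and 1 was lower, where 0.327% were. Of the 3, OLEO2 passed the filter only through mir163. By FPKM ratio, 6 of 54 were at least 2-fold higher, against 1.29% of all genes, and 0 were at least 2-fold lower, against 1.06%. A higher value of any size was found in 35 members and a lower one in 19, against 51.3% higher and 48.7% lower over all genes. Of the 35, 8 reached an FPKM of 1 only in mir163, so the filter fixed their direction, and so it did for the 1 that reached it only in WT. Among the 45 members at 1 or more in both genotypes, 27 were higher and 18 lower, and 2 were at least 2-fold higher, against 51.2% and 0.860% of all such genes. In whole seedlings, more cells with a transcript and more of it per cell cannot be told apart.

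**Figure D1:**
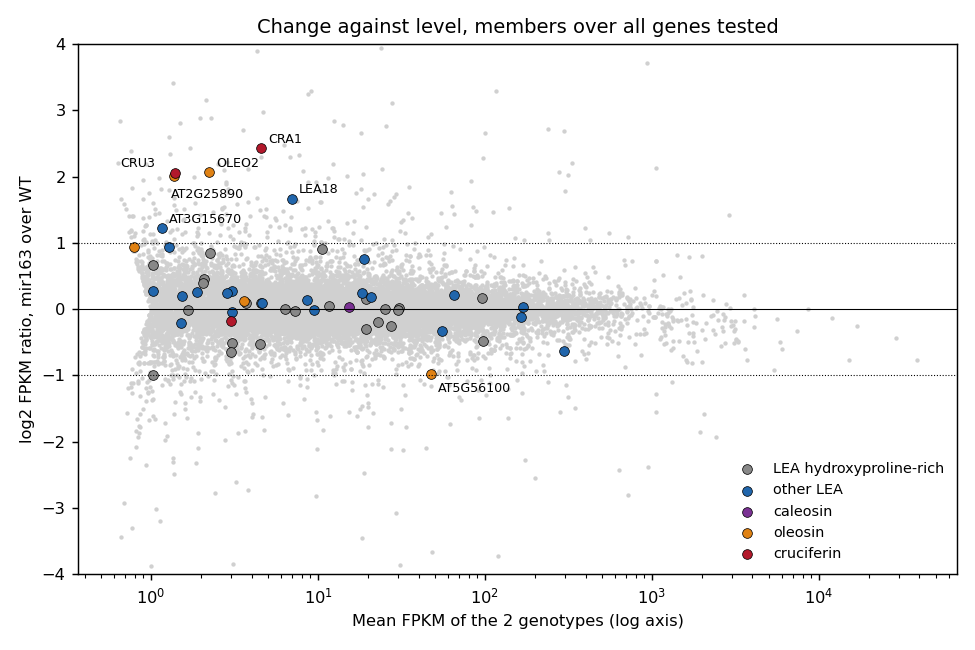
The log2 FPKM ratio of mir163 over WT (vertical axis) against the mean FPKM of the genotypes (horizontal log axis), with members in colour by class over all genes tested in grey; 24 genes beyond a log2 ratio of 4 in either direction and 11 listed at 0 in a genotype are not drawn. The members past the dotted 2-fold line lie on the upper side and at mean values under 7 FPKM, while all members with a mean of 20 FPKM or more lie within the 2-fold lines. Of all genes tested at that level, 0.775% were at least 2-fold higher and 0.831% at least 2-fold lower.

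Large ratios are more common at low levels in these data. Among all genes tested with a mean FPKM under 5, 2.69% were at least 2-fold higher in mir163 and 2.29% at least 2-fold lower. Of the 28 members in that range, 5 were at least 2-fold higher (17.9%) and 0 at least 2-fold lower. All 5 were outside the hydroxyproline-rich glycoproteins, and 4 of them (CRU3, OLEO2, AT2G25890 and AT3G15670) reached an FPKM of 1 only in mir163, so they passed the filter through the genotype in which they were high. With an FPKM of 1 or more required in both genotypes, 1 of 19 members under a mean of 5 was at least 2-fold higher, CRA1, against 1.07% of all such genes. Among members with a mean of 20 or more, 0 of 14 passed 2-fold in either direction. Of all genes tested at that level, only 0.775% were at least 2-fold higher and 0.831% at least 2-fold lower.

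CRA1 (AT5G44120), a cruciferin gene of 3 exons on chromosome 5, positions 17756238 to 17758336 on the minus strand of TAIR10.1, stood at an FPKM of 7.71 in mir163 seedlings and 1.43 in WT seedlings. The ratio was 5.38, the highest of any member tested. In the authors' deposited table its p was 0.00125, and adjusted over all genes 0.9996. Its level lay above 37.3% of the genes of the table in mir163, and above 8.72% in WT. The second storage cruciferin, CRU3 (AT4G28520), stood at 2.23 in mir163 and 0.538 in WT, a ratio of 4.16. Yet its p in the authors' deposited table was 0.536, above those of the oleosin genes OLEO2 and AT2G25890, which had similar ratios and levels, at 0.0343 and 0.0542. AT2G39650, the DUF506 gene, was at 2.83 in mir163 and 3.20 in WT. Both storage cruciferins analysed had higher values in mir163, but CRU3 reached an FPKM of 1 only there, so the filter fixed its direction. The gene that shares only the word in its description was slightly lower.

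The oleosin class held several low genes and a single abundant gene, which was the only one of the class lower in mir163. OLEO2 (AT5G40420), a coat protein of seed oil bodies, stood at 3.60 in mir163 and 0.861 in WT, a ratio of 4.18, with a p of 0.0343 in the authors' deposited table. AT2G25890, described as an oleosin family protein, was at 2.21 in mir163 and 0.551 in WT, a ratio of 4.004, with a p of 0.0542 in the authors' deposited table. All of its transcript's 50-base stretches lie in the gene AUR2 on the opposite strand, an Aurora kinase of dividing cells, which was itself at 9.80 in mir163 and 7.36 in WT. The part of AUR2 reads in the value of AT2G25890 was not tested. AT3G01570, a further oleosin family gene, was at 1.03 in mir163 and 0.540 in WT, and passed the filter only through mir163. GRP20, a glycine-rich oleosin of a group known from the pollen coat, did not reach the filter, at 0.842 in mir163 and 0.420 in WT.

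OLEO4 (AT3G27660), although a seed oleosin with RY elements, differed little: it was at 3.79 in mir163 and 3.47 in WT, a ratio of 1.09. In both genotypes it was the most abundant of the low oleosin genes. AT5G56100, described as a glycine-rich protein or oleosin, was by far the most abundant of the class, at 32.0 in mir163 and 63.2 in WT. That ratio was 0.507, with a p of 0.0412 in the authors' deposited table, and it is the only member lower at an unadjusted p under 0.05. The gene overlaps COX15 on the same strand at its start, with 3.62% of its 50-base stretches shared, and COX15 was at 12.1 in mir163 and 12.3 in WT. CLO4, a caleosin outside seeds that responds to stress, had nearly equal values, 15.5 in mir163 and 15.2 in WT.

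**Figure D2:**
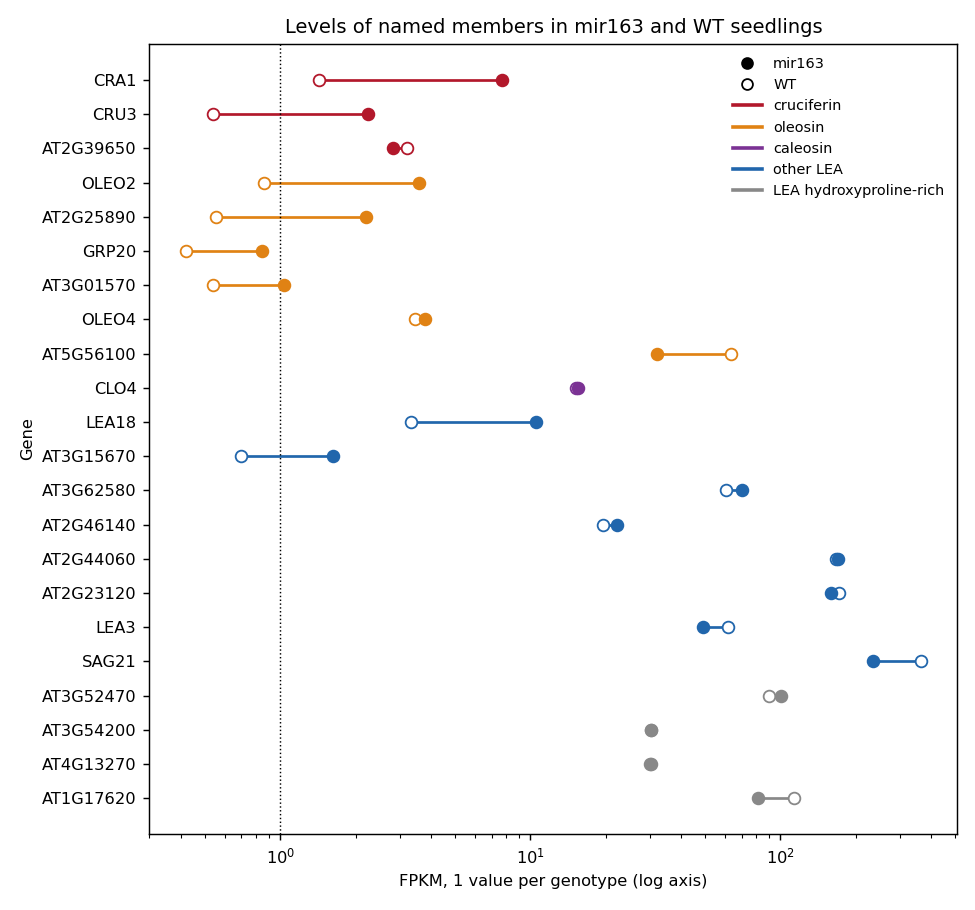
FPKM of 22 members (rows, by class) in mir163 (filled) and WT (open) on a log axis; each point is the authors' 1 value per genotype, and the dotted line is the FPKM of 1 used as the filter. CRA1, CRU3, OLEO2, AT2G25890 and LEA18 show the widest gaps with mir163 to the right, and AT5G56100 and SAG21 the widest with mir163 to the left.

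Among the 22 other LEA genes, 21 were tested, and mir163 had the higher value for 15 and the lower for 6. The 3 that reached an FPKM of 1 only in mir163 are among the 15. The median change in log2(FPKM + 1) was 0.13, beside 0.0064 over all genes tested. LEA18 (AT2G35300), also named LEA4-2, a LEA protein that accumulates when water is short, stood at 10.6 in mir163 and 3.33 in WT, a ratio of 3.17. Its p in the authors' deposited table was 0.00845. The gene has 1 exon and lies on chromosome 2, positions 14862779 to 14863412 on the minus strand, with no overlapping gene. Its paralogs had smaller differences: AtLEA4-1 was at 1.64 in mir163 and 1.43 in WT, and LEA4-5, which protects enzymes from freezing in the test tube, at 2.99 in mir163 and 3.09 in WT. No test of the difference between the paralogs was possible with 1 value per genotype.

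Several LEA family genes followed with ratios between 1.5 and 2.5. AT3G15670 was at 1.62 in mir163 and 0.698 in WT, and AT3G17520 at 1.69 in mir163 and 0.885 in WT. Both reached an FPKM of 1 only in mir163, as did LEA7, so the filter fixed their direction. AT3G02480 was well expressed, at 23.7 in mir163 and 14.03 in WT, a ratio of 1.69 with a p of 0.180 in the authors' deposited table. By contrast LEA7 differed by a ratio of only 1.20, with 1.12 in mir163 and 0.929 in WT, and AT5G53820 was lower, at 1.39 in mir163 and 1.61 in WT.

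The most abundant LEA genes had ratios on both sides of 1. SAG21, also named LEA5, which has a role in tolerance of oxidative stress, was the most abundant member in both genotypes, at 234 in mir163 and 364 in WT. Its p in the authors' deposited table was 0.173. AT2G44060, a group 2 LEA protein, was at 170 in mir163 and 166 in WT. AT2G23120, of group 6, was at 159 in mir163 and 172 in WT. LEA3 was at 49.2 in mir163 and 61.8 in WT, while AT3G62580 was at 70.0 in mir163 and 60.7 in WT and AT2G46140, also named LEA27, at 22.2 in mir163 and 19.5 in WT. Of these 6, 3 were higher and 3 lower, and every ratio lay between 0.642 and 1.15. The neighbouring genes AT5G60520 and AT5G60530, both described as LEA proteins, had ratios of 1.21 and 1.10. UNE15 did not reach the filter, at 0.726 in mir163 and 0.895 in WT.

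The LEA hydroxyproline-rich glycoproteins were the largest class and the one whose median lay nearest to that of all genes. Of 27 genes, 24 were tested, with 13 higher and 11 lower in mir163 and 0 past 2-fold in either direction. Their median change in log2(FPKM + 1) was 0.0037, beside 0.0064 over all genes tested. The lowest p of the class in the authors' deposited table, 0.107, belonged to AT5G53730 (NHL26), which affects sugar export in the phloem. It was at 13.8 in mir163 and 7.34 in WT, a ratio of 1.88. The most abundant were AT1G17620, at 81.2 in mir163 and 113 in WT, and AT3G52470, at 101 in mir163 and 90.4 in WT. AT3G54200 was at 30.5 in mir163 and 30.2 in WT, and AT4G13270 at 30.0 in mir163 and 30.4 in WT, so the genotypes were close there. At the low end, AT3G20590 had the lowest ratio of the class, 0.503, with 0.685 in mir163 and 1.36 in WT, and passed the filter only through WT. AT1G64065 was at 2.34 in mir163 and 3.68 in WT. The 3 glycoprotein genes under the filter were AT1G01453, AT2G46300 and AT2G30505, with 0.568 to 0.702 in mir163 and 0.668 to 0.870 in WT.

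**Figure D3:**
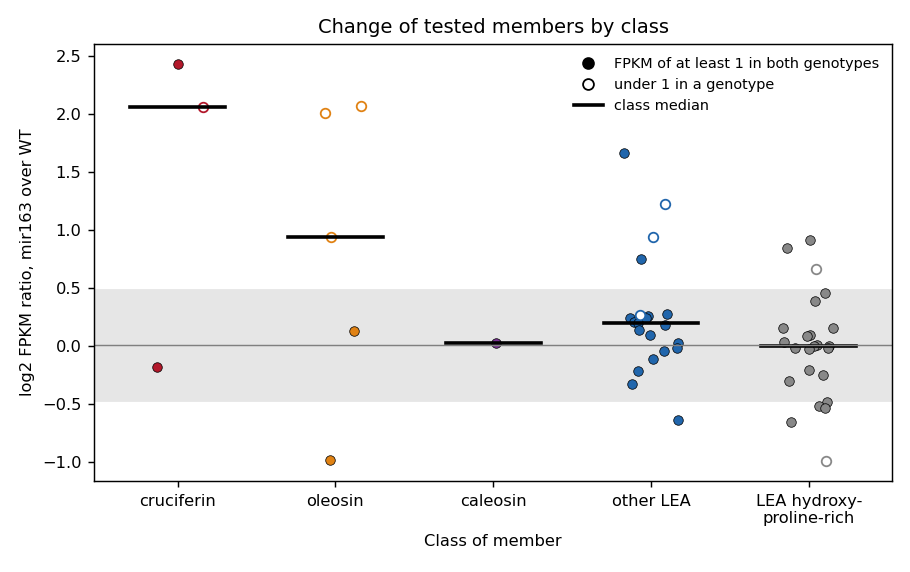
The log2 FPKM ratio of mir163 over WT (vertical axis) of the 54 members tested, by class; open points were under an FPKM of 1 in a genotype, bars are class medians, and the grey band spans the 5th to 95th percentile of all genes tested (-0.48 to 0.48). The hydroxyproline-rich class centres on the median of all genes, and the points furthest above the band are cruciferins, oleosins and LEA18.

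The glycoprotein genes also differed from the other classes in structure, which the rule did not use. In RefSeq's annotation 20 of 27 have a single exon (74.1%), against 3 of 22 other LEA genes and 2 of 6 oleosin genes. Over all protein-coding genes of the table that share was 16.1%. Transcripts of the members were short, with a median of 1088 bases over the members, against 1721 over all protein-coding genes.

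RY elements stood before a larger share of the members than of genes at large, a difference that was described and not tested. The 250-base window held CATGCA on either strand in 13 of 58 members with a window counted (22.4%), against 7.63% of 19670 windows of genes in the table. By class, 2 of 3 cruciferins, 3 of 5 oleosins, 2 of 22 other LEA genes and 6 of 27 glycoproteins had it. The ABRE core ACGTG was in 23 of 58 member windows (39.7%), against 23.8% of all windows. Its G-box form CACGTG was in 7 of 22 other LEA genes (31.8%), against 7.41% of all windows. AtLEA4-1 and LEA7 had the most ABRE cores, 5 each. A match of letters is a description of the window and not of a bound factor.

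Outside the glycoproteins, all 7 tested members with an RY element (CRA1, CRU3, OLEO4, AT2G25890, AT3G01570, LEA18 and AtLEA4-1) had a higher value in mir163, with ratios from 1.09 to 5.38, and 4 were at least 2-fold higher. Of the 22 tested without it, 14 were higher and 1 was at least 2-fold higher. The filter fixed the direction of 3 of the 7, and of the 4 at 1 or more in WT, 4 were higher and 2 at least 2-fold higher. It also fixed that of 3 of the 22, and of the 19 at 1 or more in WT, 11 were higher and 0 at least 2-fold higher. Among the glycoproteins with the element, 1 of 5 was higher. Over all genes tested, 50.5% of those with the element and 51.6% of those without were higher. At least 2-fold higher were 2.02% of those with it and 1.18% of those without. At 1 or more in WT these were 17 of 1399 and 138 of 17308 genes. For the ABRE core, 11 of 13 with it and 10 of 16 without were higher outside the glycoproteins, but the filter fixed the direction of 6 of the 13. Of the 7 with an ABRE core at 1 or more in WT, 5 were higher and 1 was at least 2-fold higher, and of the 16 without, all at 1 or more in WT, 1 was at least 2-fold higher. Over all genes tested, 49.4% of those with an ABRE core and 52.1% of those without were higher. These splits by motif were made after the values had been seen and were not tested. Among the 7 members with an RY element, the windows of AT2G25890, AT3G01570 and AtLEA4-1 overlap another annotated gene.

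**Figure D4:**
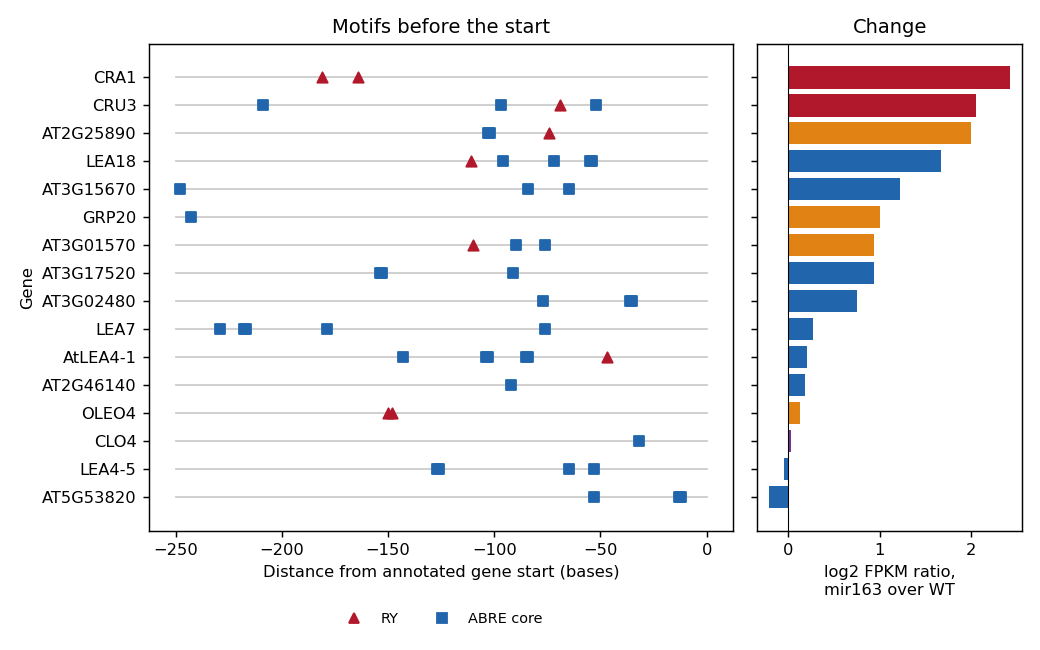
Positions of RY elements (triangles) and ABRE cores (squares) in the 250 bases before the annotated start (left, in bases) for the members outside the glycoproteins with a window counted that have at least 1 of them, ordered by their log2 FPKM ratio of mir163 over WT (right, bars coloured by class; GRP20 was under the filter). RY elements stand in the 4 rows with the highest ratios, and also in the row of OLEO4, whose ratio is near 0.

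Other genes of seed maturation, taken from lists chosen for their known roles, gave 0 past the adjusted threshold as well. The other storage proteins were low: the albumins SESA1 and SESA5 were at 0.843 and 0.791 in mir163 and at 0.275 and 0.138 in WT, all under the filter. Of 10 such genes 3 were in the table, and the only one tested, the vicilin-like AT4G36700, was at 10.8 in mir163 and 9.57 in WT. PER1, a peroxiredoxin of seeds, was at 3.95 in mir163 and 1.39 in WT, with a p of 0.0493 in the authors' deposited table. TIP3;1, an aquaporin of the protein storage vacuole, was at 1.79 in mir163 and 0.456 in WT and passed the filter only through mir163, while its relative TIP3;2 was under the filter, at 0.479 in mir163 and 0.751 in WT.

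Among regulators, 10 of 19 were in the table and 8 were tested, with 5 higher and 3 lower. ABI3 and FUS3, the B3 factors that bind the RY element, were not among the 10, so no value is given for them. ABI5, the bZIP factor that acts on LEA genes, was at 1.00 in mir163 and 0.316 in WT, with a p of 0.0321 in the authors' deposited table, and passed the filter only through mir163. The bZIP factors BZIP25 and BZIP10, which take part in storage protein expression, differed little, at 39.2 and 23.8 in mir163 and at 41.7 and 22.8 in WT. The repressor VAL1, which shuts the seed programme off in seedlings, was at 11.7 in mir163 and 12.9 in WT. Its relatives pointed the other way, with VAL2 at 10.7 in mir163 and 9.20 in WT, and VAL3 at 0.930 in mir163 and 0.464 in WT, under the filter. PKL, a chromatin remodeller with the same role, was at 16.1 in mir163 and 16.4 in WT, and WRI1, the regulator of oil synthesis, at 7.02 in mir163 and 6.01 in WT. RAB18, the dehydrin outside the rule, was at 21.2 in mir163 and 8.64 in WT, with a p of 0.0131 in the authors' deposited table.

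Dehydrins, LEA proteins that are not described by that name, had 4 of 6 tested higher and 2 lower. HIRD11, the most abundant, was at 749 in mir163 and 729 in WT, ERD14 at 378 in mir163 and 339 in WT, and COR47 at 272 in mir163 and 208 in WT. In storage oil synthesis DGAT1, which makes the final acyl transfer, was at 6.80 in mir163 and 3.04 in WT, with a p of 0.0226 in the authors' deposited table. The other acyltransferases went the other way, with DGAT2 at 23.5 in mir163 and 29.5 in WT and PDAT1 at 30.2 in mir163 and 32.6 in WT. Lipid droplet proteins of vegetative cells had 3 of 7 higher, with LDAP3 at 53.9 in mir163 and 58.3 in WT, PUX10 at 34.3 in mir163 and 34.7 in WT, and LDAP1 at 34.5 in mir163 and 33.5 in WT.

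Genes that use up the reserves after germination split evenly, with 5 of 10 higher and 5 lower and 0 past 2-fold. KAT2, of peroxisomal fatty acid breakdown, was at 139 in mir163 and 118 in WT, PCK1, of sugar synthesis from oil, at 117 in mir163 and 104 in WT, and the vacuolar protease GAMMA-VPE at 62.6 in mir163 and 60.9 in WT. Enzymes of the glyoxylate cycle, which turns oil into sugar in young seedlings, pointed in opposite directions: ICL was at 8.86 in mir163 and 11.1 in WT, and MLS at 3.76 in mir163 and 2.91 in WT.

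**Figure D5:**
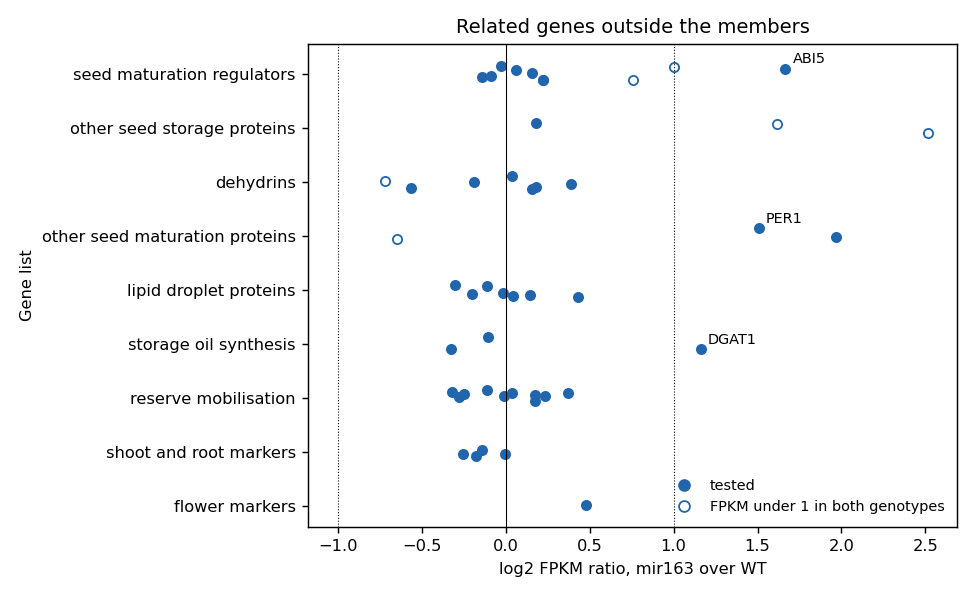
The log2 FPKM ratio of mir163 over WT (horizontal axis) of genes outside the members, by list; filled points were tested and open points were under an FPKM of 1 in both genotypes. ABI5, PER1 and DGAT1, the 3 with an unadjusted p under 0.05, lie past the dotted 2-fold line on the right, while droplet and mobilisation genes lie around 0.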

How the data were processed

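The authors' deposited table gives FPKM for mir163 and WT, 1 value per genotype, and with them a log2 fold change and a p-value that is not adjusted. Per the file headers the authors' log2 fold change is of mir163 over WT, and it equals the log2 ratio of the FPKM columns within 1.25e-05. The build TAIR10 and the tools TopHat, Cufflinks and bcl2fastq 2.17.1.14 come from the submitters' processing notes, and per the labels' protocols libraries were made with an NEBNext Ultra kit. No source used here gives how the 3 libraries per genotype were combined or tested, and depth is unknown. FPKM is relative to each library's total, so a few abundant transcripts can shift all others.

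Genes with an FPKM of at least 1 in a genotype were tested (19264, leaving out 691), by Benjamini-Hochberg adjustment of the deposited p-values over all of them at 0.05. The limma test planned for values per library could not be fitted. Ratios are of plain FPKM, and medians are on log2(FPKM + 1), which understates low genes. Percentiles are over all 19955 genes. The members and lists were chosen with earlier results of these data known. Named are all cruciferins, oleosins and the caleosin, other members with an unadjusted p under 0.05 or a 2-fold ratio, the 6 most abundant LEA genes and 4 most abundant glycoproteins, and in each list those with p under 0.05 and the 3 most abundant. Further genes were named after their values were seen. Gene models, symbols and sequences are from RefSeq's TAIR10.1, where 19672 IDs matched. The upstream window of 1 oleosin gene is not reported here and was left out of every motif count. Python 3.11.15, numpy 2.4.6, pandas 2.3.3 and matplotlib 3.10.9 were used, and the adjustment was tested on simulated data.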

Additional observations from a re-analysis of the deposited data

How the results depend on the processing

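No paired analysis was possible because the files hold a single value for each genotype. Leaving out libraries in turn was not run on that ground either, and the authors' p-values could not be recomputed under another scaling. With no filter, with a mean FPKM of at least 1 and with a minimum of 5 in a genotype, 0 members passed the adjusted threshold, and the lowest adjusted p over all genes was between 0.0864 and 0.0925. The minimum of 5 left 28 members, with 16 higher, 12 lower and 2 at least 2-fold higher. Those 2, CRA1 and LEA18, reached 5 only in mir163, so this filter fixed their direction. No share over all genes is given at this minimum. Without the hydroxyproline-rich glycoproteins 22 were higher and 8 lower. The share higher was then 73.3%, against 64.8% of all members tested and 51.3% of all genes tested. Of the 22, 7 reached an FPKM of 1 only in mir163, so the filter fixed their direction. At 1 or more in both genotypes, 15 were higher and 8 lower. That share was 65.2%, against 60.0% of all such members and 51.2% of all such genes. Quantile normalization put 1 member at 2-fold lower, and a fold of 1.5 gave 12 higher and 4 lower. The 12 include CRU3, OLEO2, AT2G25890, AT3G01570, AT3G15670, AT3G17520 and AT4G05220, which reached an FPKM of 1 only in mir163. Among the 4 is AT3G20590, which reached it only in WT. The filter fixed the direction of all these genes, and no share over all genes is given at that fold. The median log2 change of the members, 0.08, ranged from 0.0084 with the minimum of 5 to 0.15 without the glycoproteins. The 22 members that the naming rule gives kept their direction under 2 pseudocounts and 2 scalings, in 88 of 88 comparisons, although a pseudocount cannot turn a sign. Of all 54 members tested, median-ratio scaling turned the direction of 2, the glycoprotein genes AT3G44380 and AT4G23930, and quantile normalization that of AT4G23930 alone; both had ratios of 1.00 as deposited. Leaving out the 3 members that lie wholly within another gene, chosen after seeing the data, left 5 at least 2-fold higher and, at an unadjusted p under 0.05, 3 higher and 1 lower. Low FPKM and unknown depth limit every ratio given for the seed genes.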
